A study of Mus musculus with 34 samples.

Results

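Arntl, Npas2, Per1, Per2, Per3, Cry1, Nr1d1, Dbp, Tef and Hlf, 10 genes of the circadian clock and its output, were followed in brushed mouse airway epithelium before and after exposure to a tobacco carcinogen. The 10 genes were taken by their symbols from a table of 24223 gene rows, and all 10 passed the filter on low counts, which 14847 rows passed. Every mouse of the 5 groups carried the Gprc5a-/- genotype, the loss of a receptor gene known as a lung tumour suppressor in mice. The carcinogen was NNK, a nitrosamine of tobacco smoke, injected intraperitoneally at 50 mg/kg body weight in 3 doses a week over 8 weeks. Tracheal epithelium was brushed from 6 mice prior to NNK (baseline), 6 mice straight after the last dose (t0), 5 mice 2 months later (t2), 6 mice 4 months later (t4) and 5 mice 6 months later (t6), the time at which lung adenocarcinoma had developed. A separate set of 6 wild-type mice without NNK was measured at baseline only. The labels give an age of 6 to 8 weeks for every group, taken here as the age at entry. On that reading, mice of the later groups had also grown older by the time of brushing. Unexposed mice of those later ages were not analysed here, and age and time since exposure cannot be told apart.

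The clock is a feedback loop of transcription factors. BMAL1, the product of Arntl, pairs with CLOCK or with its relative NPAS2, binds E-box sequences and drives the Per and Cry genes, whose proteins return to the nucleus and repress the pair. A side loop runs through Nr1d1, which encodes the repressor REV-ERB alpha and shuts down Arntl through elements shared with the activating ROR receptors. The outputs Dbp, Tef and Hlf encode PAR bZIP factors, which act on D-box sequences in Per and many metabolic genes. In lung, the clock of the bronchiolar club cells is known to time inflammatory responses. Messenger RNA of most of these genes rises and falls over each day, with Arntl and Dbp near opposite phases. The hour at which each mouse was brushed is not given in the labels, so for every comparison below a difference between groups cannot be told apart from a difference in the hour of collection.

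Promoter windows from RefSeq (GRCm38.p6), running from 250 bases before to 50 bases after each annotated start, were matched by symbol to all members but Per2, in 12 windows of 300 bases. They are shown for Per3, Arntl and Cry1, picked because their windows held a D-box, a ROR element and an E-box. Any link of an element to a gene's course over time was not tested. Per1 and Tef, whose windows also held an E-box, did not follow the course of Cry1. Capitals mark the D-box in Per3 (chr4:151044616-151044915, minus strand), the ROR element in Arntl (chr7:113207261-113207560, plus strand) and the E-box in Cry1 (chr10:85185005-85185304, minus strand), each written 5′ to 3′ on the gene's strand.
Per3: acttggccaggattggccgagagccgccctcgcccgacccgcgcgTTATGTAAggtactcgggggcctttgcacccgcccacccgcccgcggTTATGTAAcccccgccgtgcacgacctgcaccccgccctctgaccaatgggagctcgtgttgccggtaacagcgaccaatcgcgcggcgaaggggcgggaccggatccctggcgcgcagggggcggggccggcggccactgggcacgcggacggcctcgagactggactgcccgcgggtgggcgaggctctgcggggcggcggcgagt
Arntl: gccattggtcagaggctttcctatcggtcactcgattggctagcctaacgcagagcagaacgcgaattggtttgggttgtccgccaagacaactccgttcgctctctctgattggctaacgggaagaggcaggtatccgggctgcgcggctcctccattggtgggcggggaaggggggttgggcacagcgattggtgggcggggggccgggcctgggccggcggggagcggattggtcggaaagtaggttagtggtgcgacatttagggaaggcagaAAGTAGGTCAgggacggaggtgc
Cry1: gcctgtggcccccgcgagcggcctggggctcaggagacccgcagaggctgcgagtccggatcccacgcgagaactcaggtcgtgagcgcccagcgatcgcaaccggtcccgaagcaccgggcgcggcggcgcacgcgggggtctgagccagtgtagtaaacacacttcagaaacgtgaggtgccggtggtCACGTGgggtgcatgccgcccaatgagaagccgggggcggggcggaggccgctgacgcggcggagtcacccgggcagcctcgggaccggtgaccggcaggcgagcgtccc
The D-box (TTANGTAA) occurred at 205 and 158 bases before the Per3 start, and was found in 1 of 9 members with a window and in 2.72% of all 27025 genes with a window. The ROR element (AANT followed directly by NGGTCA) began 27 bases after the second of 2 annotated Arntl starts, and the window of the first start held none. It was found in 1 of 9 members and 0.714% of all genes with a window. The E-box (CACGTG) lay 60 bases before the Cry1 start and was also found in windows of Per1 and Tef, which makes 3 of 9 members, against 8.09% of all genes with a window. The cyclic AMP element (TGACGTCA) was found in Hlf alone among the members, and in 2.03% of all genes with a window. Both strands were searched and no match overlapped a match of another motif. A match describes the letters of the window and shows no binding, and a window without one says nothing of the factor.

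Counts of reads were deposited per gene, and levels are given as CPM, counts scaled to a common library total, after edgeR's normalisation by trimmed mean of M values (TMM). Library totals ran between 15.6 M and 37.6 M counts. Gprc5a itself held 4 to 49 counts in 27 libraries and 238 counts in t2 mouse 339, whose library also listed 14475 genes above 0, against 16892 to 19082 in the other libraries. Haemoglobin genes took 22.8% of counts in t0 mouse 357, 25.5% in t4 mouse 371 and 15.3% in t6 mouse 349, and the ribosomal gene Rn45s took 14.8% in t6 mouse 365. These 5 libraries and t0 mouse 359, which an earlier analysis had set apart, were left out together as an alternative. Genes of airway epithelium were present in every group, with summed levels of 3460 to 9189 CPM for 6 markers. Markers of several cell types differed from baseline. At t0 the 6 club cell markers summed to 15320 to 24180 CPM, against 65990 to 97820 CPM at baseline, and 6 of 6 fell. Club markers were still lower in 4 of 6 at t2, in 5 of 6 at t4 and in 4 of 6 at t6, with sums of 33160 to 53470, 29030 to 55440 and 27290 to 63380 CPM that stayed below the baseline range. Squamous markers rose in 4 of 5 tested at each time after exposure, with sums of 1525 to 4299 CPM at t0, 483.1 to 766.8 CPM at t2, 239.7 to 721.5 CPM at t4 and 306.3 to 683.2 CPM at t6, against 80.8 to 259.6 CPM at baseline. The Arntl, Cry1 and Per2 differences at the later times thus stood beside lower club and higher squamous and muscle sums. The 6 ciliated cell markers summed to 1204 to 2775 CPM at t0, against 3568 to 4450 CPM at baseline, and 6 of 6 fell. Basal cell markers rose in 5 of 6, and 5 of 5 macrophage markers in the table rose, with sums of 303.8 to 1045 CPM at t0 and 44.4 to 80.4 CPM at baseline. Skeletal muscle markers rose in 6 of 6 at each of the 3 later times, with sums of 103.8 to 1420 CPM at t2, 16.2 to 79.8 CPM at t4 and 16.3 to 1516 CPM at t6, against 1.68 to 11.3 CPM at baseline. No marker of these lists was at 0 throughout a group, and of the squamous markers only Sprr1b was, at all times but t2. The part of these cell types in the clock results was not tested, and in such bulk brushings fewer cells of a type and less RNA per cell cannot be told apart.

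**Figure D1:**
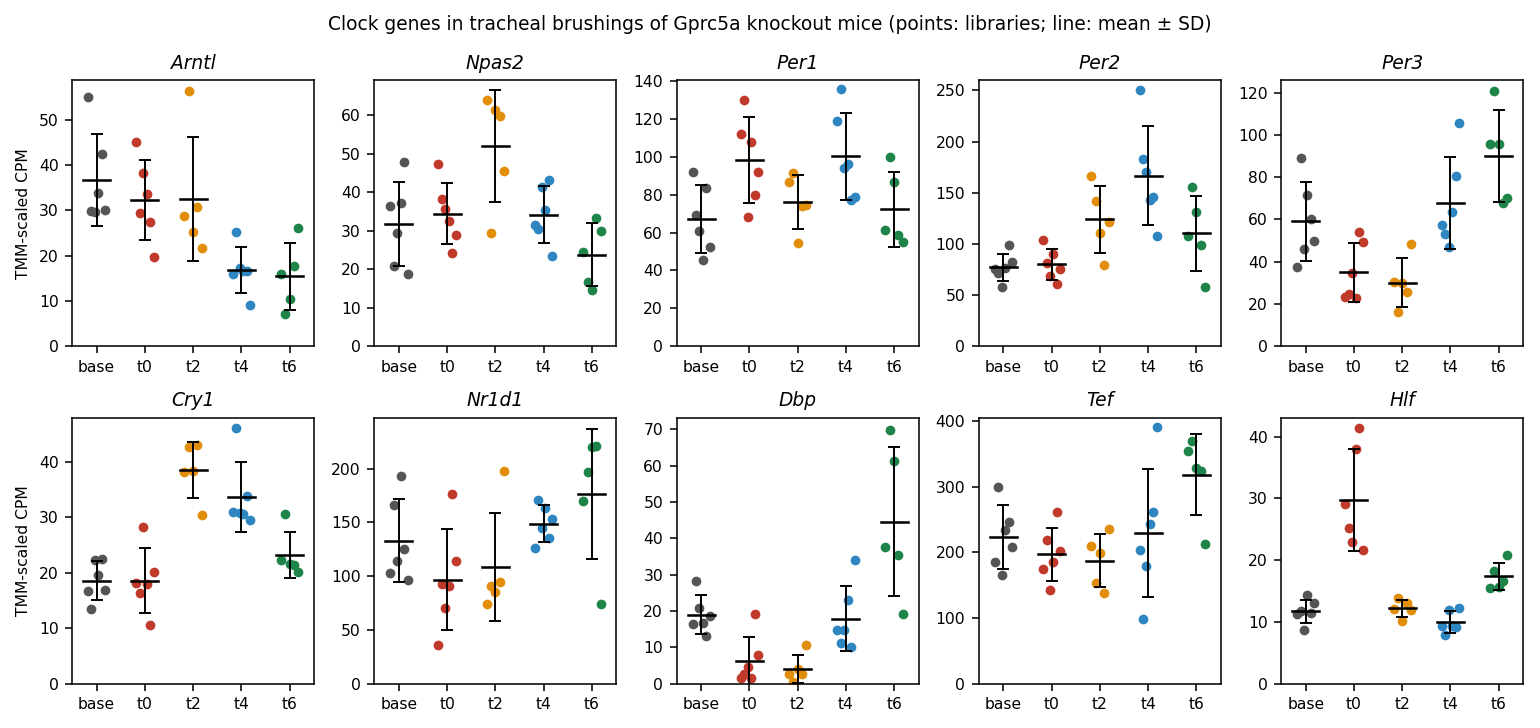
Levels of the 10 clock genes in every library, as TMM-scaled CPM on a linear axis, by group from baseline to t6. Points are single mice, horizontal lines are group means and error bars are SD. Dbp lies lowest at t0 and t2 and highest at t6, Arntl lies lowest at t4 and t6, and Hlf stands apart at t0.

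At the end of exposure the clock genes did not move as a block. Compared with baseline, Hlf and Per1 were higher at t0 and Dbp and Per3 were lower, which makes 4 of 10 members called by edgeR's quasi-likelihood test at an adjusted p under 0.05, against 45.5% of all genes tested (23.3% higher and 22.3% lower). At t2, Cry1, Per2 and Npas2 were higher and Dbp and Per3 lower than at baseline, 5 of 10 members, against 19.9% of all genes (11.2% higher and 8.73% lower). At t4, Per2, Cry1 and Per1 were higher and Arntl lower, 4 of 10 members, against 19.6% of all genes (10% higher and 9.56% lower). At t6, Hlf was higher and Arntl lower, 2 of 10 members, against 8.83% of all genes (4.54% higher and 4.29% lower). The median log2 fold change of the 10 members against baseline was, from t0 to t6, −0.09, −0.06, 0.14 and 0.46, where the medians of all genes were 0.02, 0.02, 0.01 and −0.01. Between t2 and t0, 3 of 10 members differed, with Cry1 and Per2 higher at t2 and Hlf lower, against 29.9% of all genes (15.7% higher and 14.2% lower). Between t6 and t0, 6 of 10 members differed, with Dbp, Per3, Nr1d1 and Tef higher at t6 and Arntl and Hlf lower, against 38.7% of all genes (18.2% higher and 20.5% lower). A test across all 5 groups called 9 of 10 members, all but Nr1d1, against 56.8% of all genes. Against baseline, groups did not overlap for 1 member at t0, 2 members at t2, 3 members at t4 and 2 members at t6, where the shares over all genes were 25.8%, 11.9%, 13% and 9.4%. They did not overlap for 2 members at t2 against t0 (12.6% of all genes) and for 3 members at t6 against t0 (23% of all genes). The share of members called at t0 was thus near the share of all genes. The comparisons with baseline share the same 6 baseline mice.

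**Figure D2:**
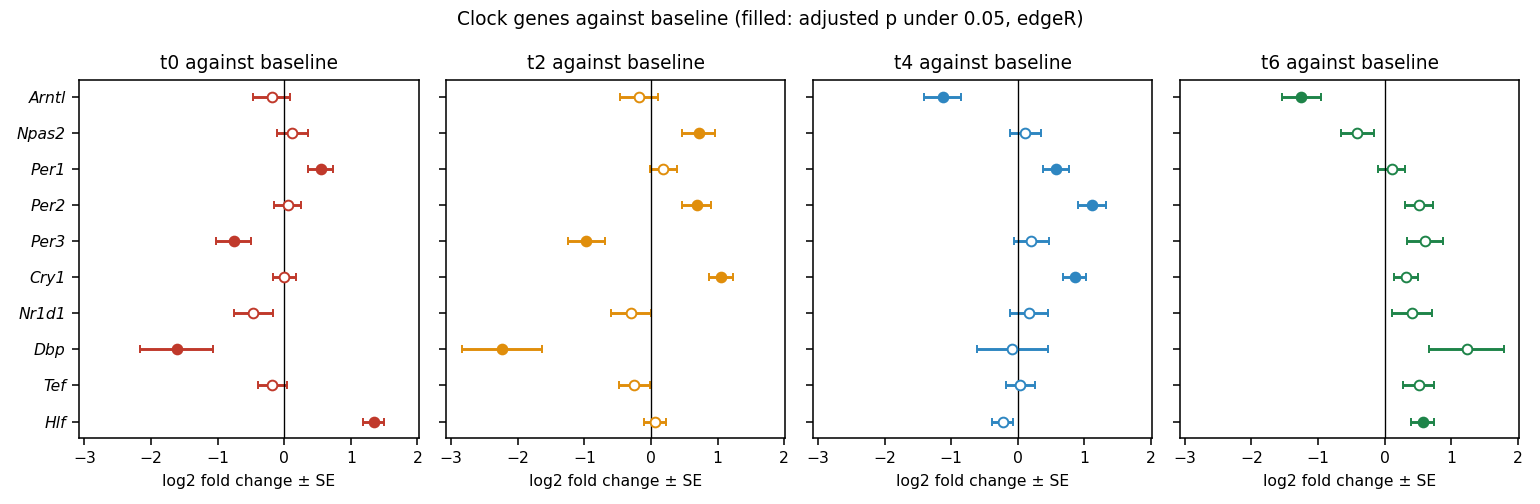
Log2 fold changes of the 10 clock genes against baseline at each time after exposure, with standard errors from edgeR; filled points passed an adjusted p of 0.05. Dbp and Per3 lie below 0 at t0 and t2 and above 0 at t6, and Arntl lies furthest below 0 at t4 and t6.

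Arntl, the core activator of the loop (chromosome 7, 113207465 to 113314127, mm10), stood near its baseline level at t0 and t2 and was lower at t4 and t6. Its level ranged from 29.8 to 55.1 CPM at baseline (median 32.0), from 19.7 to 45.2 CPM at t0 (median 31.5) and from 9.20 to 25.3 CPM at t4 (median 16.7). The 5 mice at t2 held 28.7, 56.3, 25.3, 30.8 and 21.8 CPM, and the 5 mice at t6 held 15.9, 7.07, 10.4, 17.8 and 26.1 CPM. Every mouse at t4 and at t6 lay below every baseline mouse, while t0 and t2 overlapped with baseline. In each of t0 and t2, 3 mice lay below every baseline mouse, and t2 mouse 339 lay above them all. Arntl fell by 1.13 ± 0.28 (log2, SE) at t4 against baseline (edgeR adjusted p = 0.0054) and by 1.25 ± 0.29 at t6 (edgeR adjusted p = 0.0067). The t6 level was also lower than at t0, by a log2 fold change of −1.06 ± 0.29 (edgeR adjusted p = 0.0049). At t0 and t2 the differences from baseline were −0.19 and −0.18 and did not pass (edgeR adjusted p = 0.59 and 0.7). With 1 library left out in turn, the t2 value reached −0.47 at the lowest and never passed. Leaving out the 6 libraries named above, of which t6 lost mice 349 and 365, ended the call at t6, with −0.85 against baseline (edgeR adjusted p = 0.066) and −0.61 against t0 (edgeR adjusted p = 0.095).

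Npas2, which can take the place of CLOCK beside BMAL1 (chromosome 1, 39194272 to 39363241), was higher at t2. Levels of the 5 t2 mice were 64.0, 29.5, 61.3, 59.9 and 45.5 CPM, against 18.7 to 47.9 CPM at baseline (median 32.9). Mice 339 and 360 lay inside the baseline range and the other 3 above it. The log2 fold change was 0.71 ± 0.24 (edgeR adjusted p = 0.039). The call was lost when any of baseline mice 344, 345 and 356 or t2 mice 334, 347 and 358 was left out, with an adjusted p of up to 0.097, and with upper quartile factors (0.053) or a fit of the 2 groups alone (0.07). At the other times Npas2 ranged from 24.2 to 47.3 CPM at t0, 23.4 to 43.1 CPM at t4 and 14.7 to 33.4 CPM at t6, and none of these differences from baseline passed.

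The repressors Per1, Per2, Per3 and Cry1 followed different courses. Per2 (chromosome 1, 91415982 to 91459329) was highest at t4, where it ranged from 107.4 to 250.3 CPM (median 158.0), against 58.0 to 99.0 CPM at baseline (median 75.9). All t4 mice lay above all baseline mice. Per2 rose at t4 by 1.11 ± 0.21 on the log2 scale (edgeR adjusted p = 0.00056), which held with every library left out in turn. The t2 mice held 166.7, 141.6, 111.1, 79.3 and 121.4 CPM, and 4 of 5 lay above all baseline mice. The t2 difference was 0.68 ± 0.22 against baseline (edgeR adjusted p = 0.025) and 0.63 ± 0.22 against t0 (edgeR adjusted p = 0.026), where t0 ranged from 61.1 to 103.5 CPM. The first was lost without baseline mouse 345 or t2 mouse 334 (adjusted p up to 0.083). The second was lost without t0 mouse 374 or t2 mouse 334 or 339 (adjusted p up to 0.098), with library totals in place of the TMM factors (0.057) and without the 6 libraries (0.099). At t6 the mice held 107.6, 155.9, 131.3, 99.3 and 57.6 CPM, and the difference from baseline of 0.52 did not pass (edgeR adjusted p = 0.14).

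Cry1, the strongest repressor of the BMAL1 pair among the cryptochromes (chromosome 10, 85131700 to 85185055), was higher at t2 and t4. The t2 mice held 38.2, 42.6, 38.4, 43.0 and 30.5 CPM, and the t4 mice ranged from 29.5 to 46.2 CPM (median 30.9). Baseline mice ranged from 13.5 to 22.5 CPM (median 18.3). All t2 and t4 mice lay above all baseline mice. Cry1 rose by 1.05 ± 0.18 (log2, SE) at t2 (edgeR adjusted p = 0.00035) and by 0.85 ± 0.17 at t4 (edgeR adjusted p = 0.0013), and both held with each library left out in turn. Against the t0 range of 10.6 to 28.3 CPM (median 18.1), the t2 mice were all higher, with a log2 fold change of 1.05 ± 0.18 (edgeR adjusted p = 6.3e-05). The t0 level itself differed from baseline by 0.00 (edgeR adjusted p = 0.99), and the t6 mice, with 22.3, 30.6, 21.5, 21.4 and 20.1 CPM, differed from baseline by 0.32 (edgeR adjusted p = 0.3). Its within-group spread, an SD of 0.29 on the log2(CPM + 1) scale, was next to the smallest of the 10 members.

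Per3 (chromosome 4, 151003655 to 151044666), a period gene that is not needed for the core rhythm in mice, was lower at t0 and t2. It ranged from 22.9 to 54.2 CPM at t0 (median 29.8), against 37.7 to 89.1 CPM at baseline (median 55.0). At t2 the 5 mice held 30.6, 16.1, 29.8, 25.7 and 48.4 CPM. In both groups most mice lay below the baseline range and a few inside it, mice 374 and 375 at t0 and mouse 360 at t2. The log2 fold changes were −0.76 ± 0.26 at t0 (edgeR adjusted p = 0.02) and −0.97 ± 0.28 at t2 (edgeR adjusted p = 0.016). The t0 call was lost without baseline mouse 344 or t0 mouse 332, 357 or 367 (adjusted p up to 0.067), with library totals alone (0.12) and without the 6 libraries (0.071). The t2 call was lost without the 6 libraries (0.055). At t6 the mice held 95.6, 120.7, 95.9, 67.8 and 70.0 CPM, all above all t0 mice, and the t6 level was higher than at t0 by 1.37 ± 0.27 (log2, edgeR adjusted p = 0.00028) under every alternative. Against baseline the t6 difference of 0.61 ± 0.27 did not pass (edgeR adjusted p = 0.17).

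Per1 (chromosome 11, 69098956 to 69109958), a period gene that also responds acutely to stimuli, ranged from 68.4 to 130.0 CPM at t0 (median 99.95), against 45.4 to 92.1 CPM at baseline (median 65.1). At t4 it ranged from 77.3 to 136.0 CPM (median 95.2). Both groups overlapped with baseline. The differences of 0.55 ± 0.19 at t0 (edgeR adjusted p = 0.021) and 0.58 ± 0.19 at t4 (edgeR adjusted p = 0.035) were each lost with single libraries left out. At t0 these were baseline mice 352 and 356 and t0 mouse 357 (adjusted p up to 0.067). At t4 these were baseline mice 344, 345, 352 and 356 and t4 mice 335, 336 and 340 (adjusted p up to 0.095). The call across groups (edgeR adjusted p = 0.031) was lost without baseline mouse 345, 352 or 356, t0 mouse 332 or 357 or t4 mouse 335 or 336 (adjusted p up to 0.057). At t2 the mice held 86.9, 91.5, 54.8, 74.3 and 74.5 CPM, and at t6 mice 341, 365, 366 and 368 held 61.4, 86.7, 58.9 and 54.8 CPM with mouse 349 above them. Both groups overlapped with baseline and neither difference passed.

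Nr1d1 (chromosome 11, 98767932 to 98775378) was the member that the test across groups did not call (edgeR adjusted p = 0.086). It ranged from 96.4 to 193.4 CPM at baseline (median 119.9), from 35.5 to 176.2 CPM at t0 (median 91.8) and from 126.0 to 170.8 CPM at t4 (median 148.7). The t2 mice held 74.0, 91.0, 85.1, 94.1 and 197.3 CPM, and the t6 mice held 169.9, 196.5, 220.1, 221.2 and 74.2 CPM. In each of t0, t2 and t6, a single mouse ran against the rest of its group: mouse 374 at t0, mouse 360 at t2 and mouse 368 at t6. Against t0 the t6 level was higher by 0.87 ± 0.30 (log2, edgeR adjusted p = 0.024). This was lost without t0 mouse 332 or t6 mouse 365 or 366 (adjusted p up to 0.062) and with library totals alone (0.066). It was also lost in a fit of the compared groups alone and without the 6 libraries, where it was 0.62 (0.26). Without t0 mouse 374, Nr1d1 was lower at t0 than at baseline by a log2 fold change of −0.72 (edgeR adjusted p = 0.039) and passed the test across groups (edgeR adjusted p = 0.018), which it also did without t2 mouse 360 or t6 mouse 368, by DESeq2 and by limma on log2(CPM + 1).

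Dbp (chromosome 7, 45705247 to 45710204), the PAR bZIP gene with the widest daily swing, had the widest range of the 10 members. It ranged from 1.55 to 19.1 CPM at t0 (median 3.50), against 13.0 to 28.3 CPM at baseline (median 17.7). In t0 mice 332, 357, 359, 367 and 375 it lay below all baseline mice, and mouse 374, with 19.1 CPM, lay inside the baseline range. Mice of the t2 group held 2.55, 0.552, 4.06, 2.58 and 10.6 CPM, all below all baseline mice. At t4 it ranged from 10.02 to 33.9 CPM (median 14.7). At t6 the mice held 37.6, 69.7, 61.1, 35.3 and 19.1 CPM, so 4 of 5 lay above all baseline mice and all lay above all t0 mice, mouse 368 by a narrow margin (19.15 against 19.12 CPM). The log2 fold change was −1.61 ± 0.55 at t0 (edgeR adjusted p = 0.019), −2.24 ± 0.60 at t2 (edgeR adjusted p = 0.011) and −0.08 at t4 (edgeR adjusted p = 0.93). At t6 the difference from baseline of 1.23 ± 0.56 did not pass (edgeR adjusted p = 0.18), except in a fit of these groups alone (1.24, edgeR adjusted p = 0.014), and it was 0.73 without the 6 libraries (0.52). The difference from t0 was 2.84 ± 0.58 (edgeR adjusted p = 0.00038). Leaving out 1 library in turn moved the t0 value between −2.38 and −1.41, always past the threshold, and the value furthest from 0 was the one without mouse 374. The t0 call was lost with library totals alone (adjusted p = 0.055) and without the 6 libraries (0.07). Dbp's interval overlaps that of Sphk2 in the table, and its counts were whole in 10.7% of libraries. Over all genes, 76.3% of values above 0 were whole. Fractional parts are always smaller than a whole count, so they do not show how many reads Dbp shared with other genes.

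Tef (chromosome 15, 81802673 to 81826864), a second PAR bZIP factor, moved less. The t6 mice held 355.0, 369.6, 328.5, 324.4 and 213.0 CPM, against 143.3 to 261.2 CPM at t0 (median 193.8), and 4 of 5 lay above all t0 mice. The difference of 0.69 ± 0.23 (log2, edgeR adjusted p = 0.019) was lost with library totals alone (0.063) and without the 6 libraries (0.15). Baseline mice ranged from 165.3 to 300.3 CPM (median 221.4), t4 mice from 98.1 to 390.7 CPM (median 223.2) and the t2 mice held 209.8, 153.8, 199.7, 137.7 and 236.1 CPM. No group passed against baseline, and at t6 the difference was 0.51 (edgeR adjusted p = 0.18). The call across groups (edgeR adjusted p = 0.045) was lost in 20 of the 28 fits that left out 1 library (adjusted p up to 0.12).

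Hlf, the remaining PAR bZIP gene (chromosome 11, 90336535 to 90390918), did not follow Dbp and Tef. It ranged from 21.7 to 41.4 CPM at t0 (median 27.1), against 8.67 to 14.3 CPM at baseline (median 11.5), and all t0 mice lay above all baseline mice. Hlf rose by 1.34 ± 0.16 (log2, SE) at t0 (edgeR adjusted p = 2.9e-07), under every alternative. The t2 mice held 12.0, 13.8, 10.1, 13.1 and 12.0 CPM, inside the baseline range and below all t0 mice, with a log2 fold change of −1.28 ± 0.17 against t0 (edgeR adjusted p = 3.5e-06). At t4 it ranged from 7.82 to 12.3 CPM (median 9.33), a difference from baseline of −0.23 (edgeR adjusted p = 0.34). At t6 the mice held 15.5, 18.2, 15.6, 16.6 and 20.9 CPM, between the t0 range and the baseline range without touching either. The t6 difference from baseline was 0.57 ± 0.17 (edgeR adjusted p = 0.032) and that from t0 was −0.77 ± 0.17 (edgeR adjusted p = 0.00069). The call against baseline was lost without baseline mouse 343, 344, 345 or 355 or t6 mouse 349 or 368 (adjusted p up to 0.076), with library totals alone (0.064), without the 6 libraries (0.051) and with no filter on low counts. The t0 rise of Hlf stood beside the lower club and ciliated marker sums and the higher basal and macrophage sums given above, whose part in it was not tested.

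The pair Dbp and Arntl marks opposite phases of the loop, and their ratio within a library is free of the library's scaling. The log2 ratio of Dbp over Arntl, in CPM, ran from −1.75 to −0.08 at baseline (median −0.86), from −4.76 to −0.52 at t0 (median −3.32), from −6.67 to −1.05 at t2 (median −3.49), from −1.19 to 1.88 at t4 (median −0.17) and from −0.45 to 3.30 at t6 (median 1.24). At t0, mice 374 and 375 had ratios of −0.52 and −1.33, inside the baseline range, while the other 4 ran from −4.76 to −3.10. At t2, mouse 360 had the highest ratio, −1.05, and the other 4 ran from −6.67 to −2.64. At t6, mouse 368 had the lowest ratio, −0.45, and the other 4 ran from 0.99 to 3.30. The 3 mice in which Nr1d1 ran against its group were thus also those at the end of their group in this ratio, and mouse 360 also had the highest Per3 of t2. The hour of collection of these mice is not given.

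**Figure D3:**
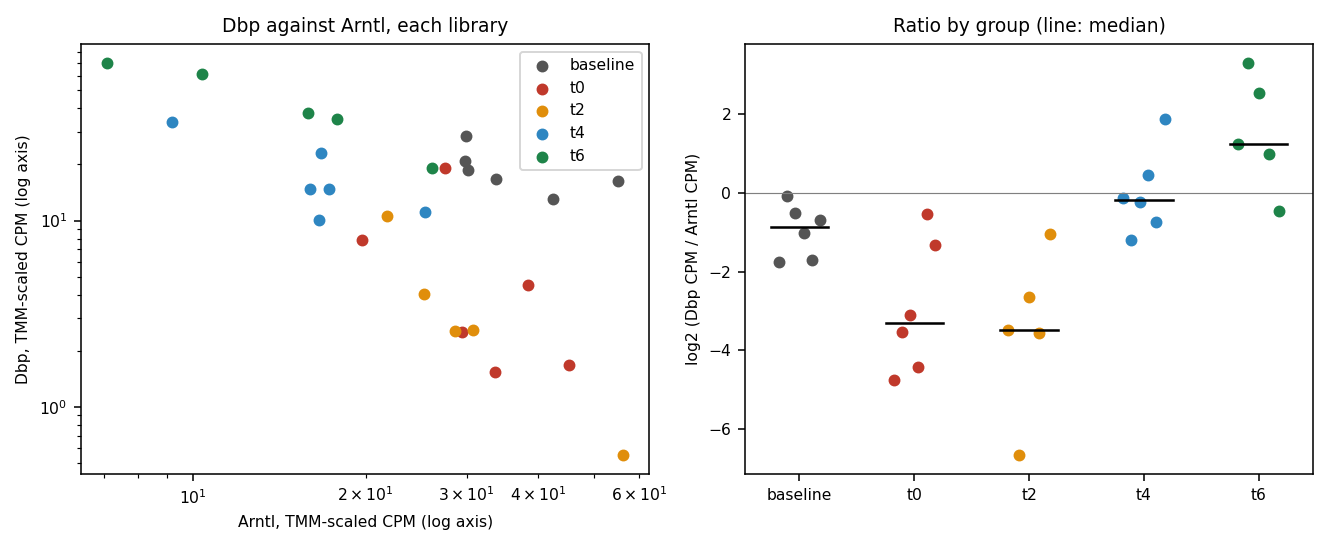
Dbp against Arntl in each of the 28 knockout libraries, in TMM-scaled CPM on log axes, coloured by group. Most t0 and t2 mice lie at lower Dbp than the baseline mice, with t0 mouse 374 inside the baseline range of Dbp, and the t6 mice lie at low Arntl, with Dbp above the baseline mice in all but mouse 368.

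Mice of the same group also differed from each other in the levels of these genes. The within-group SD of Dbp was 0.83 on the log2(CPM + 1) scale, at the percentile 97.2 of 11532 genes with a mean of at least 5 CPM, whose median was 0.30. Nr1d1 had an SD of 0.54 (percentile 87.9), Arntl 0.48 (82.9) and Per3 0.47 (82.1), while Hlf had 0.25 (33.6). Npas2, Tef, Per2, Per1 and Cry1 lay nearer the middle, from percentile 76.7 for Npas2 down to 48.5 for Cry1. Each library's deviation from its group mean was taken, and 45 pairs of members were correlated across the 28 libraries. Permutation was within groups and adjustment was over the 45 pairs. The members were chosen with earlier results of these data known, so the p-values below describe the pairs and are no independent test. Arntl and Dbp deviated in opposite directions (Pearson r = −0.739, permutation p = 2e-05, adjusted 0.00045), also by rank (Spearman rho = −0.773, permutation p = 1e-05, the smallest the permutations can give, adjusted 0.00045). Without the libraries of t2 mouse 339 and t6 mouse 349, the farthest from the median in Arntl, r was −0.692. Per3 and Dbp deviated together (r = 0.801, permutation p = 2e-05, adjusted 0.00045; rho = 0.755, permutation p = 5e-05, adjusted 0.0011), and r was 0.736 without t2 mice 339 and 360. Arntl deviated against Per3 (r = −0.727, permutation p = 4e-05, adjusted 0.0006; rho = −0.695, permutation p = 0.00021, adjusted 0.0024; r = −0.674 without those of mice 339 and 349). The period genes Per1 and Per2 deviated together (r = 0.622, permutation p = 0.00085, adjusted 0.0064; rho = 0.66, permutation p = 0.00053, adjusted 0.0048; r = 0.613 without baseline mouse 343 and t6 mouse 349). Dbp and Hlf did not show such a relation (r = 0.023, permutation p = 0.93, adjusted 0.93; rho = −0.082, permutation p = 0.71, adjusted 0.88; r = −0.27 without t0 mouse 374 and t2 mouse 360). Of the 45 pairs, 7 had a positive and 4 a negative r with an adjusted permutation p under 0.05, and 9 of these passed by both measures. The share over pairs of all genes was not computed, so whether this count is particular to the clock genes cannot be said. Genes outside the clock lists also had r of −0.79 (Il1r1 to Dbp) and 0.827 (Ipo9 to Arntl). The points share their library's depth and its makeup of cells, whose part was not tested.

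**Figure D4:**
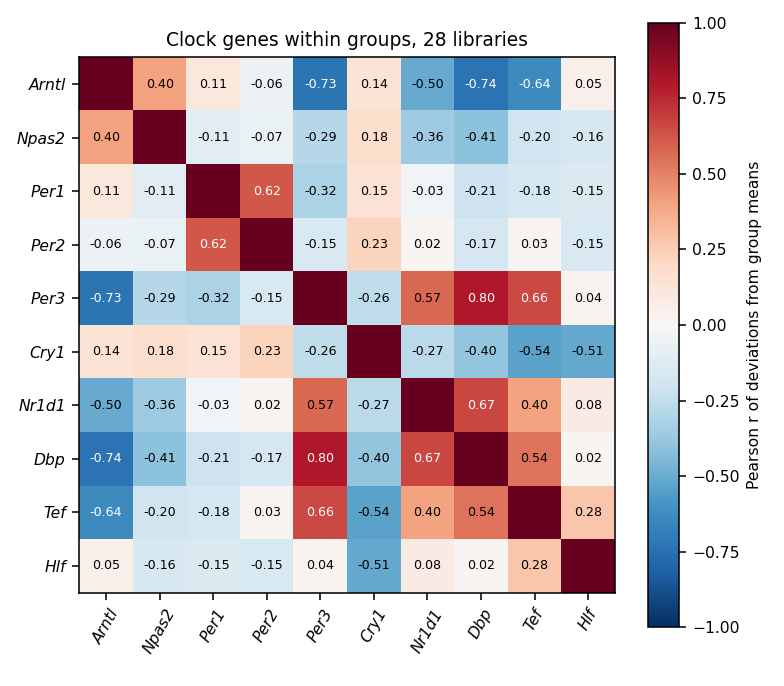
Pearson correlations between the 10 clock genes of their deviations from group means, over 28 libraries, as a grid of colour from −1 to 1. Dbp, Per3, Nr1d1 and Tef are positive to each other and negative to Arntl, Per1 and Per2 are positive to each other, and Hlf is near 0 to Dbp.

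Likeness to Dbp was measured as the Pearson r of these deviations over the 28 libraries, across the same 11532 genes and given without a test. The 5 genes most like Dbp were Per3 (0.801), Myeov2 (0.784), Pdcd5 (0.784), Rpa3 (0.726) and 2010109I03Rik (0.691). Those most opposed to it were Il1r1 (−0.79), Arntl (−0.739), Mcur1 (−0.724), Zc3h11a (−0.715) and Arih2 (−0.706). For Arntl the most alike were Ipo9 (0.827), Il1r1 (0.806), Pdpk1 (0.785), Cdcp1 (0.782) and Vps13b (0.767), and the most opposed were Bola1 (−0.806), Syne4 (−0.774), Cdk5 (−0.754), Bmyc (−0.74) and Dbp (−0.739). Il1r1, the signalling receptor for interleukin-1, thus stood at the end of both lists. Among other clock genes, Nr1d2, the relative of Nr1d1, had r = 0.626 to Dbp, and Nfil3, which encodes a repressor that competes with the PAR bZIP factors for the D-box, had r = −0.612 to Dbp and 0.644 to Arntl. Clock had r = 0.664 to Arntl. Without the 6 libraries, over 22 libraries, Per3, Myeov2, 2010109I03Rik, Il1r1, Mcur1 and Zc3h11a stayed among the first 5 at either end for Dbp, and Il1r1, Bola1 and Cdk5 for Arntl. The r of Nr1d2 to Dbp was then 0.816, which placed it among the 5 most alike, and that of Arntl to Dbp was −0.691, outside the 5 most opposed.

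A list of 22 other clock genes was read in the same fits. All 22 were in the table and all but Rorb passed the filter. Of the 21 tested, 11 differed at t0 from baseline (5 higher and 6 lower), 6 at t2 (4 higher and 2 lower), 4 at t4 (3 higher and 1 lower) and 2 at t6 (1 higher and 1 lower), beside the shares of all genes given above. Their median log2 fold change was 0.13, 0.03, 0.05 and 0.09, from t0 to t6. Clock, the partner of BMAL1, did not pass the test across groups (edgeR adjusted p = 0.52). That test called 12 of the 21 tested, near the share of 56.8% of all genes. Arntl2, a paralog of Arntl, averaged 17.8 ± 4.15 CPM at t0 (SD, n = 6), against 1.32 ± 1.01 CPM at baseline (SD, n = 6), a log2 fold change of 3.77 ± 0.45 (edgeR adjusted p = 2e-07). It averaged 7.71 ± 3.94 CPM at t2, 9.33 ± 3.81 CPM at t4 and 8.54 ± 2.28 CPM at t6 (SD), and at all 4 times every mouse lay above every baseline mouse. The t6 log2 fold change was 2.71 ± 0.44 (edgeR adjusted p = 2e-04), while that of Arntl at t6 was −1.25.

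The genes that feed the ROR and D-box elements were among the other members that changed. Rora, the activator that competes with REV-ERB at the ROR element, averaged 19.4, 19.3, 19.8 and 28.7 CPM at the 4 times after exposure, from t0 to t6, against 40.9 CPM at baseline. Its log2 fold change was −1.08 ± 0.15 at t0 (edgeR adjusted p = 2.2e-06), −1.09 ± 0.16 at t2 (6.3e-05), −1.04 ± 0.15 at t4 (3.3e-05) and −0.51 ± 0.16 at t6 (0.039), and no mouse reached the baseline range before t6. The t6 call was lost without any of baseline mice 343, 345, 352 and 355 and t6 mice 349, 365 and 366 (adjusted p up to 0.12), with library totals alone, RLE or upper quartile factors, with no filter on low counts (0.053), and without the 6 libraries, where the value was −0.28 (0.37). Nr1d2, the second REV-ERB gene, averaged 33.5 CPM at t0 and 33.2 CPM at t2, against 67.6 CPM at baseline, with log2 fold changes of −1.01 ± 0.24 (edgeR adjusted p = 0.0013) and −1.03 ± 0.26 (0.0066). Its t6 mean of 77.2 CPM was higher than at t0 by 1.21 ± 0.25 (edgeR adjusted p = 0.00043). Nfil3 averaged 58.9 CPM at t2 against 32.6 CPM at baseline, 0.85 ± 0.28 higher (edgeR adjusted p = 0.035), and 17.6 CPM at t6 against 38.7 CPM at t0, a log2 fold change of −1.13 ± 0.29 (edgeR adjusted p = 0.0031). The t2 call was lost without baseline mouse 344, 345, 352 or 356 or t2 mouse 334 or 358 (adjusted p up to 0.093), in a fit of the compared groups alone (0.065) and without the 6 libraries (0.064). The t6 call was lost without the 6 libraries (0.077).

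Cry2, the second cryptochrome, averaged 29.6 ± 9.07 CPM at t0 (SD, n = 6), against 73.4 ± 14.7 CPM at baseline (SD, n = 6). No t0 mouse reached the baseline range, and the log2 fold change was −1.31 ± 0.24 (edgeR adjusted p = 8.7e-05). At t6, with 93.0 ± 3.81 CPM (SD, n = 5), it was higher than at t0 by 1.65 ± 0.25 (edgeR adjusted p = 1.1e-05). Its interval overlaps that of D930015M05Rik in the table. Bhlhe41, which encodes a repressor at the E-box, averaged 22.4 ± 12.9 CPM at t0 (SD, n = 6), against 3.69 ± 2.80 CPM at baseline (SD, n = 6), 2.60 ± 0.47 higher on the log2 scale (edgeR adjusted p = 6e-05). Of the casein kinases that phosphorylate the period proteins, Csnk1d rose by 0.48 at t0 and 0.42 at t2 (edgeR adjusted p = 0.00055 and 0.0086) and Csnk1e by 0.98 and 0.63 (edgeR adjusted p = 2.2e-05 and 0.0098). The third kinase of the list, Csnk1a1, did not pass at these times, with −0.20 and −0.21 (edgeR adjusted p = 0.2 and 0.28). Csnk1e was also higher at t4, by 0.85 (edgeR adjusted p = 7e-04). Btrc, a ubiquitin ligase component that marks period proteins for breakdown, fell at t0 by 0.60 (edgeR adjusted p = 0.00057). Usp2, a deubiquitinase, fell at t0 by 1.00 (edgeR adjusted p = 0.0055) and Timeless, which also acts at replication forks, rose by 1.33 (edgeR adjusted p = 0.0035).

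**Figure D5:**
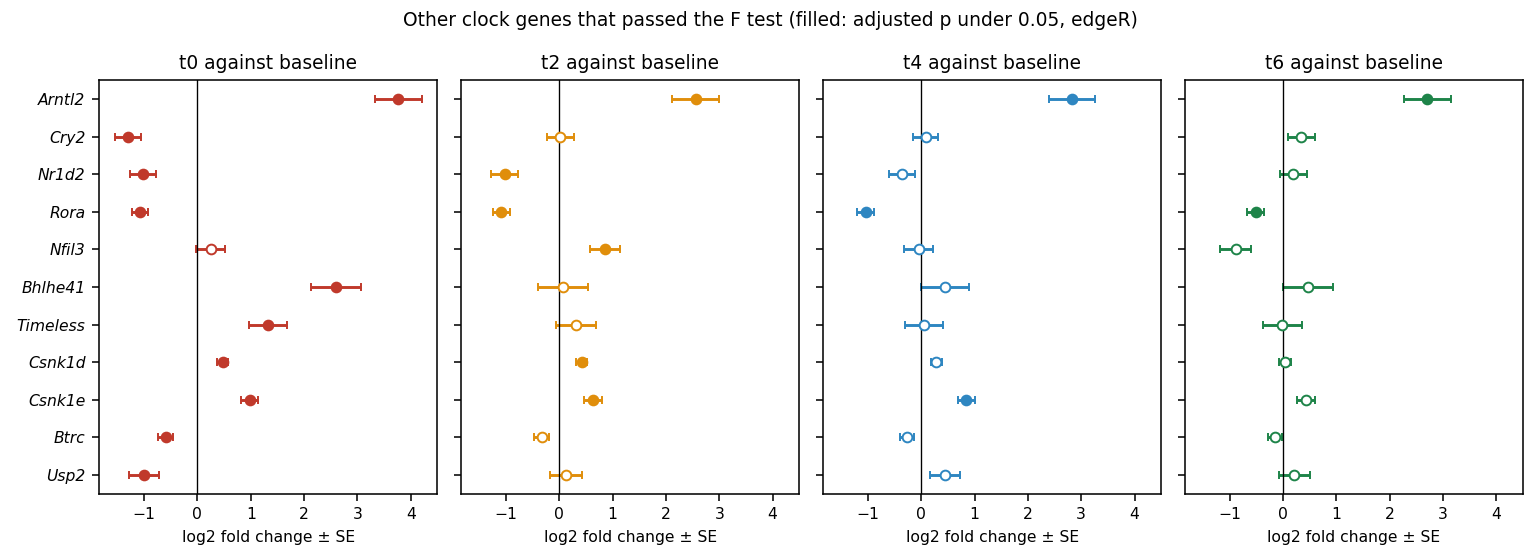
Log2 fold changes against baseline at each time after exposure for other clock genes that passed the test across the 5 groups, with standard errors from edgeR; filled points passed an adjusted p of 0.05. Arntl2 lies above 0 at all 4 times and Rora below 0, while Bhlhe41 is high and Cry2 low at t0 only among the called values.

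In the separate set of 6 unexposed wild-type mice, levels were deposited as TPM, transcript abundances scaled by gene length and library total, which allow genes to be ordered. The mean was highest for Tef, 126 ± 50.5 TPM (SD, n = 6), followed by Nr1d1 with 71.1 ± 14.7 and Dbp with 55.2 ± 12.8 TPM. Per2 (25.9 ± 14.1 TPM), Per3 (23.7 ± 7.88 TPM) and Per1 (21.2 ± 10.3 TPM) came next. The lowest were Arntl (8.06 ± 4.73 TPM), Hlf (5.75 ± 4.72 TPM), Cry1 (5.69 ± 3.03 TPM) and Npas2 (3.36 ± 2.01 TPM). Neighbours in this order had overlapping ranges in every case. Within libraries, Tef was higher than Nr1d1 in 6 of 6 mice, Dbp higher than Per2 in 6 of 6 and Per1 higher than Arntl in 6 of 6, whereas Per2 was higher than Per3 in 3 of 6. Hlf, placed above Cry1 by its mean, was higher than Cry1 in 1 of 6 mice, mouse 295 with 15.03 TPM of Hlf and 2.47 TPM of Cry1. The log2 ratio of Dbp over Arntl, in TPM, ran from 1.34 to 4.91 among these mice of the same treatment. The wild-type and knockout tables were made and scaled separately and in different units, so no level was compared between them.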

How the data were processed

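RNA of brushed tracheal epithelium was sequenced from 28 knockout mice and 6 wild-type mice, with each library from a mouse of its own. For the knockout libraries the authors deposited estimated counts per gene, under a header that names another unit. Of the values above 0, 76.3% were whole within 0.01. The wild-type values are TPM and estimated counts, deposited per gene identifier by the authors. The submitters' processing notes name STAR 2.4.1d and Bowtie2 2.1.0 with Partek for knockout libraries, STAR 2.7.0f and RSEM 1.3.1 for wild-type libraries, and mm10; how strand was counted is not given in the sources used here. Libraries were poly-A selected and read on an Ion Proton sequencer, per the labels' protocols.

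Counts were rounded, and a row was kept where 5 or more libraries had 1 CPM or more. The edgeR 4.0.16 quasi-likelihood test (R 4.3.3) was fitted with robust dispersion, TMM factors and a mean per group over all 28 libraries, with Benjamini-Hochberg adjustment over all genes tested and a threshold of 0.05. Fold changes are on the log2 scale with standard errors. A contrast reads the first group over the second. Correlations used deviations of log2(CPM + 1) from group means and 100000 permutations within groups (numpy 2.4.6, scipy 1.17.1). The edgeR fit was tried on simulated counts, and the other steps were not tried in this way. Alternatives were DESeq2 1.42.0, limma 3.58.1 on log2(CPM + 1) or log2(CPM + 0.1), other scalings and filters, and leaving out libraries.

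The members and lists were chosen with earlier results of these data known. Named are all members, other clock genes that passed the test across groups, and up to 3 genes of the glucocorticoid and immediate early lists with the smallest p. For likeness, the 5 highest and 5 lowest r were named. The lowest count of a member in a library was 17, for Dbp at t2. The edgeR p-values set differences between groups against the spread between mice. Anything shared by a whole group, such as an hour of brushing, is not part of that spread. Proteins were not used here, and values of 1 gene of the list of other clock genes are not reported here.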

Additional observations from a re-analysis of the deposited data

Results flagged for a closer look

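In 7 of 60 groups of 5 or 6 mice, the highest or lowest value of a member stood apart from the rest of its group by Dixon's criterion, which chance alone meets now and then. Dbp at t0 was 19.1 CPM in mouse 374, against 1.55 to 7.83 CPM in the other mice of its group. Nr1d1 at t2 was 197.3 CPM in mouse 360, against 74.0 to 94.1 CPM. Arntl at t2 was 56.3 CPM in mouse 339, whose library also listed fewer genes and more Gprc5a counts than the others. Cry1 was 46.2 CPM in t4 mouse 336 and 30.6 CPM in t6 mouse 349, both the highest of their groups. Tef at t6 was 213.0 CPM in mouse 368, the lowest of its group. Hlf was 15.03 TPM in wild-type mouse 295, the highest of the wild-type mice.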

How the results depend on the processing

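At t0 against baseline 4 members were called, and 2 with library totals alone or without the 6 libraries; leaving out 1 library in turn gave 2 to 5, the lowest without t0 mouse 357. At t2 the 5 members became 3 to 5 with 1 library left out, the lowest without baseline mouse 345 or t2 mouse 334. At t4 the 4 became 3 to 4. At t6 the 2 became 1 to 2 with 1 library left out (baseline mouse 343, 344, 345 or 355 or t6 mouse 349), 1 with library totals alone, 1 with no filter on low counts, 3 in a fit of these groups alone, where Dbp was also called, and 0 without the 6 libraries. Without the 6 libraries, 2 members (Arntl and Hlf) had an unadjusted p under 0.05 by edgeR. Over all genes at t6, the main count of 1311 became 833 with library totals alone and 910 to 2052 with 1 library left out, the highest without t2 mouse 339. With library totals alone, the share of called genes that were higher than at baseline was, from t0 to t6, 69.4%, 80.3%, 71.2% and 72.0%, against 51.1%, 56.1%, 51.2% and 51.4% with TMM. The median log2 fold change over all genes was then 0.19 at t0 and 0.12 at t2. For t6 against t0 that share was 35.5% with totals alone and 57.2% without haemoglobin genes and Rn45s, against 47.0%. At t6 it was 66.7% without the 6 libraries. No called member turned direction under any alternative run. No paired analysis was possible because every mouse has a number of its own. Without the 6 libraries, 40 of 45 pair correlations kept their side of the threshold, and 45 of 45 did with log2(CPM + 0.1). Without the 6 libraries, 4 pairs newly passed: Arntl with Npas2, Arntl with Per1, Npas2 with Dbp and Cry1 with Dbp. The pair Nr1d1 and Tef no longer passed. The r of Arntl and Per1 went from 0.109 to 0.613, so which pairs passed depended on these libraries. Depth and mouse numbers limit small changes, and group sizes of 5 or 6 leave several calls resting on single mice.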

Other observations

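Genes that respond to stress hormones or to handling were read beside the clock genes, since Per1 is known to respond to glucocorticoids as well. Of 6 glucocorticoid-responsive genes, 3 differed at t0 from baseline, 2 at t2 and 3 at t4, where 45.5%, 19.9% and 19.6% of all genes did. Of 9 immediate early genes, 1 differed at t0 and 1 at t2. Fkbp5, a co-chaperone of the glucocorticoid receptor, was higher by 1.91 on the log2 scale (edgeR adjusted p = 3e-04), Sgk1 was higher by 0.74 (edgeR adjusted p = 0.0027) and Cdkn1c was lower, with −1.53 (edgeR adjusted p = 8e-06). At t2, Fkbp5 was higher by 1.83 (edgeR adjusted p = 0.0027) and Cdkn1c lower, with −0.81 (edgeR adjusted p = 0.02), and 4 of 6 were not called. At t4, Fkbp5 was higher by 1.75 (edgeR adjusted p = 0.0028), and Sgk1 (−0.67, edgeR adjusted p = 0.015) and Cdkn1c (−0.71, edgeR adjusted p = 0.031) were lower. Among the immediate early genes, Fos was lower at t0 (−1.64, edgeR adjusted p = 0.038) and Jun lower at t2 (−1.93, edgeR adjusted p = 0.019), while the other 8 at each of these times were not called. The Fos call was lost without any of baseline mice 343 and 355 and t0 mice 332, 367, 374 and 375 (adjusted p up to 0.2, with a value of −0.96 at the least). The Jun call was lost without baseline mouse 343 (−1.12, adjusted p = 0.1), that of Sgk1 at t4 without baseline mouse 343 (0.065), and those of Cdkn1c at t2 without baseline mouse 356 (0.052) and at t4 without baseline mouse 344 or 356 or t4 mouse 335, 371 or 377 (up to 0.083).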
